A study of Mus musculus with 3 samples.

Results

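The proneural and Delta genes of retinal precursors are described here as 9 genes: *Neurog2*, *Atoh7*, *Olig2*, *Dll1*, *Dll3*, *Hes5*, *Hes6*, *Mybl1* and *Vxn*. They were taken by symbol from the deposited gene table, in which each symbol has 1 row, and are 9 of its 33696 genes. Their identifiers in that table are ENSMUSG00000027967 (*Neurog2*), ENSMUSG00000036816 (*Atoh7*), ENSMUSG00000039830 (*Olig2*), ENSMUSG00000014773 (*Dll1*), ENSMUSG00000003436 (*Dll3*), ENSMUSG00000048001 (*Hes5*), ENSMUSG00000067071 (*Hes6*), ENSMUSG00000025912 (*Mybl1*) and ENSMUSG00000067879 (*Vxn*). The study examined Norrin/β-catenin signaling in retinal vessels, and its single-cell part holds 3 libraries of mouse retina at postnatal day 6, prepared with a droplet kit that reads the 3′ end of transcripts. The WT library came from wild-type mice. The *Tspan12* KO library came from mice with a *Tspan12* knockout. The *Ctnnb1* cKO library came from *Ctnnb1* flox/flox mice carrying *Pdgfb*-iCreER, which deletes *Ctnnb1* in endothelial cells after tamoxifen, given on consecutive days from postnatal day 1. The strain background was C57BL/6 in all groups, each library was a pool of mice of one genotype, and the WT pups came from other litters than the knockout pups. Cells had been enriched with magnetic beads against CD31 and CD11b, so every neural cell below is one that came through a selection for vessels and microglia.

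The retina makes its neurons and its one glial type, Müller glia, from shared cycling progenitors. A progenitor that leaves the cycle transiently expresses proneural factors, which are basic helix-loop-helix (bHLH) transcription factors that start neuronal genes. Proneural factors also switch on the Delta ligands, which activate the Notch receptor of neighbouring cells, and Notch in turn switches on Hes repressors that hold those neighbours in the progenitor or glial state. *Neurog2* and *Atoh7* encode proneural bHLH factors, *Atoh7* being needed for ganglion cells, and *Olig2* encodes a bHLH factor found in late progenitors that divide for the last time. *Dll1* encodes a Notch ligand, and *Dll3* a divergent Delta protein that acts mainly inside the cell. *Hes5* is a target of Notch, whereas *Hes6* encodes a Hes protein that opposes Hes repression and goes with neuronal differentiation. *Mybl1* encodes a transcription factor related to Myb, and *Vxn* (vexin) a protein that goes with the action of proneural factors in neurogenesis.

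The DNA before the start of *Hes5*, *Hes6* and *Dll1* is printed because the wiring just described is written in such sequences: bHLH factors bind the letters CANNTG, and the DNA-binding partner of Notch, Rbpj, binds TGGGAA. Each is the 250 bases before a RefSeq start site (assembly GRCm38.p6), read 5′ to 3′ along the gene's own strand, and the capitals mark matches of either motif on either strand. The *Hes5* stretch is chr4:154960673-154960922 on the plus strand, the *Hes6* stretch chr1:91414039-91414288 on the minus strand, and the *Dll1* stretch chr17:15376933-15377182 on the minus strand.
Hes5: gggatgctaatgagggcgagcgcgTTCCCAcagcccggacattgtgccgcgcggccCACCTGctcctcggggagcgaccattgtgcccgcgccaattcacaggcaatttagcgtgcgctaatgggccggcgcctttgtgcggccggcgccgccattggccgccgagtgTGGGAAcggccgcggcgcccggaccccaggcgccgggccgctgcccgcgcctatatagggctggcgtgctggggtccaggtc
Hes6: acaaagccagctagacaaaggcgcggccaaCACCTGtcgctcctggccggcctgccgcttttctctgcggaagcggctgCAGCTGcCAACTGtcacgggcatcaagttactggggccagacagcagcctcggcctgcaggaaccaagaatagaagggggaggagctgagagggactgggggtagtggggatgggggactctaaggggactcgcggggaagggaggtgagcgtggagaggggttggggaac
Dll1: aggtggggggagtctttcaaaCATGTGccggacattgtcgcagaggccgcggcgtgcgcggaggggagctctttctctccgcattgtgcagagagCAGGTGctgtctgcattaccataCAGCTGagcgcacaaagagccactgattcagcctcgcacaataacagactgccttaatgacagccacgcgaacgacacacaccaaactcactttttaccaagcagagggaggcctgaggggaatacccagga
The *Hes5* window held 2 matches of TGGGAA, which start 226 and 82 bases before the start site, and 1 of CANNTG at 194 bases. The printed *Hes6* window held 3 matches of CANNTG, at 220, 171 and 164 bases, and the *Dll1* window held 3, at 229, 155 and 132 bases. Among 32841 windows of the same length, 66.2% held at least 1 match of CANNTG and 12.2% at least 3, while 21.6% held at least 1 match of TGGGAA and 2.76% at least 2. These are matches of letters, and binding was not measured. RefSeq start-site entries were found for 7 of the 9 genes, all but *Mybl1* and *Vxn*. *Hes6* and *Dll1* have a second start site each, downstream of the printed one, whose window held 1 match of CANNTG. The windows of the other genes held 0 (*Neurog2*, *Olig2*), 2 (*Dll3*) and 3 (*Atoh7*) matches of CANNTG, and of these *Atoh7* held 1 of TGGGAA.

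Every value below is a count of UMIs (unique molecular identifiers, each marking 1 captured transcript). The libraries held 9951 (WT), 14426 (*Tspan12* KO) and 9151 (*Ctnnb1* cKO) barcodes with 92684519, 137114957 and 37008362 UMIs, and pairs of libraries shared 21 to 37 barcodes. *Tspan12* itself stood at 95.9 CPM (the UMIs of a gene per 1000000 UMIs of the cells) in WT endothelial cells and at 84.0 in those of the library labelled *Tspan12* KO. The deleted part of the gene is not given in the sources used here, and 3′ tags outside it check nothing, so that library is named below by its label alone. For the same reason the *Ctnnb1* level of endothelial cells, 524 CPM in WT and 444 in the library labelled *Ctnnb1* cKO, checks nothing. With 1 library per group, a library's preparation and its genotype cannot be told apart and no difference between groups was tested. Levels are sums of a gene's UMIs over all cells of a class, given as CPM relative to every UMI those cells hold, and the ranges in brackets are exact 95% intervals (Poisson for levels, conditional binomial for ratios, Clopper-Pearson for shares) that cover counting error only. Levels are compared between cell classes and libraries, never between genes, since 3′ tags are captured unequally. Summed levels do not tell fewer expressing cells from less RNA per cell.

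Cells were clustered with all 9 genes left out, so their levels did not define the classes, although genes that vary with them did. Precursors were 1 cluster of 785 WT, 646 *Tspan12* KO and 54 *Ctnnb1* cKO cells, which is 8.73%, 5.07% and 0.639% of the kept cells. These numbers depend on the clustering: classes by marker score held 1149, 903 and 306 precursors, and with each library clustered on its own 536, 732 and 351. The name rests on 4 of 8 markers fixed for the class, and *Mybl1*, *Neurog2*, *Vxn*, *Olig2* and *Dll3* were among the 10 genes that led this cluster although none of them was used to make it. The 9 genes and the markers were chosen with earlier results of these data known, so that leading place adds no independent support to the name. Cycling progenitors numbered 309, 178 and 93 cells, and Müller glia 1042, 1179 and 644. Of the 644 Müller glia of the *Ctnnb1* cKO library, 550 lay in a separate cluster (cluster 16) with 2 WT cells, named from 3 of 8 markers, and values of this library's Müller glia are given with it, then without it. Median depth was 5294, 3131.5 and 2755 UMIs per precursor in the WT, *Tspan12* KO and *Ctnnb1* cKO libraries. Clusters passing for horizontal or ganglion cells were not found, so of the neurons only rods, cones, bipolar and amacrine cells are described.

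**Figure D1:**
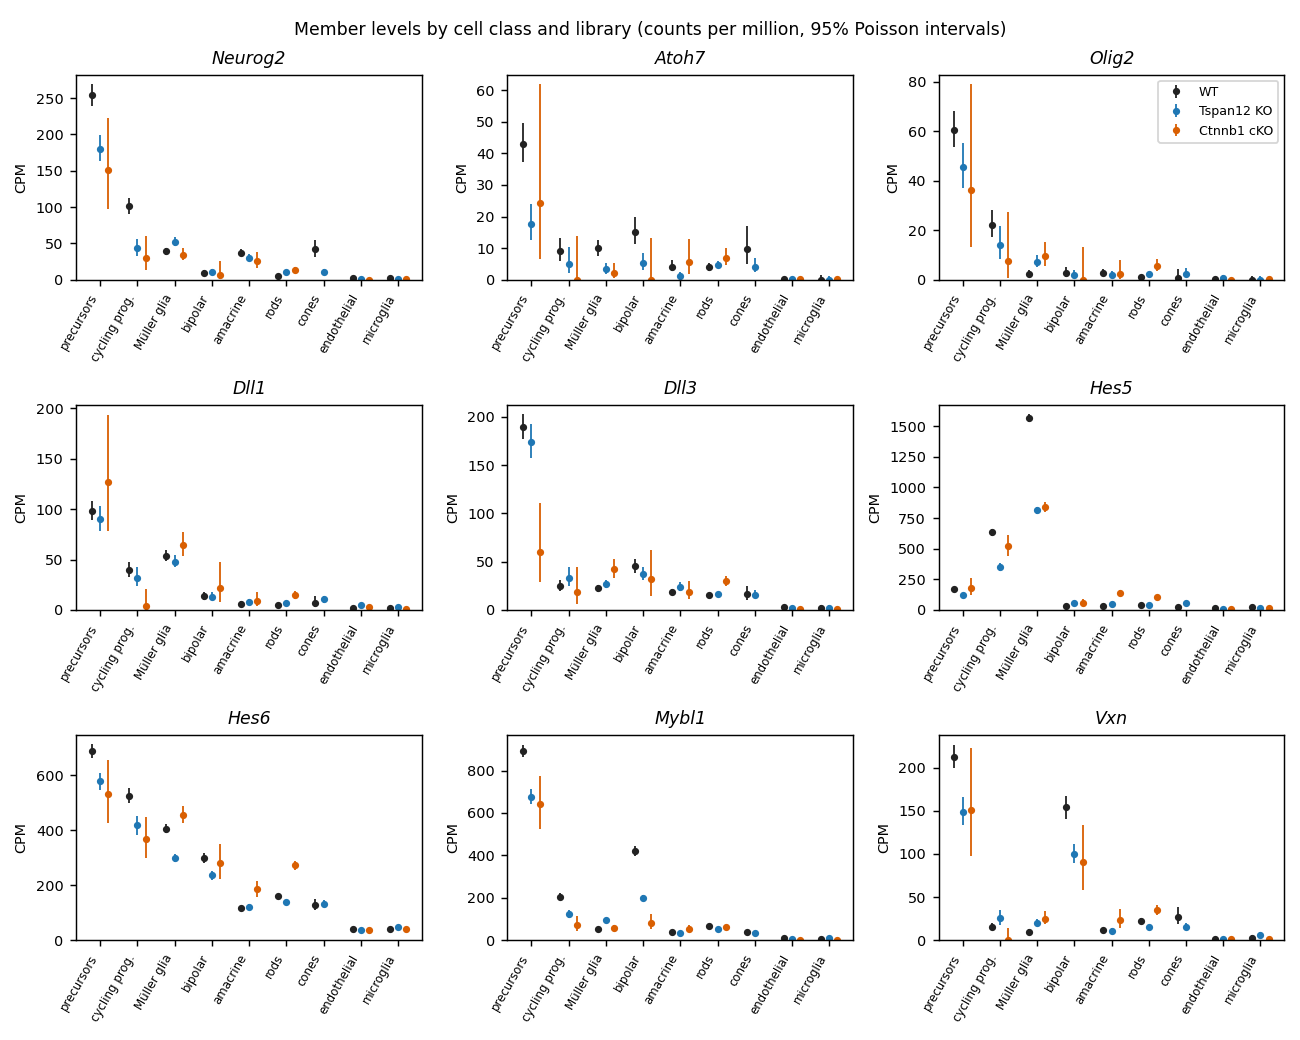
Level of each gene (vertical axis, CPM on a linear scale from 0, with exact 95% Poisson intervals) in 9 cell classes of the 3 libraries, cones of the *Ctnnb1* cKO library (13 cells) left out. *Hes5* was highest in Müller glia, at 1564 CPM in WT, while every other gene had its highest WT level in the precursors, and *Mybl1* and *Vxn* had a further high point in bipolar cells.

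The proneural factors marked the precursors in each library. *Neurog2* stood at 254 CPM [239, 269] in WT precursors, at 180.2 [163, 199] in those of the *Tspan12* KO library and at 151 [97.7, 223] in the 54 cells of the *Ctnnb1* cKO library. In cycling progenitors its level was 101, 43.7 and 30.4 CPM, and in Müller glia 39.0, 52.0 and 34.6 CPM, in the same order. The precursors were thus the highest of these classes in all 3 libraries, and only in WT did cycling progenitors lie above Müller glia beyond their intervals. Among neurons, *Neurog2* was at 37.0, 30.4 and 25.6 CPM in amacrine cells and at 5.64 to 14.1 CPM in rods. In cones it was at 41.9 CPM [31.3, 54.9] in WT, from 52 UMIs in 70 cells, and at 11.02 CPM in the *Tspan12* KO library. Its level was 0.391 to 2.60 CPM in endothelial cells and microglia, which should lack it. *Olig2* stood at 60.5 [53.5, 68.2], 45.5 [37.1, 55.3] and 36.2 CPM [13.3, 78.9] in precursors, at 22.2, 13.8 and 7.59 in cycling progenitors (2 UMIs in the last), and at 2.49, 7.34 and 9.58 in Müller glia. It did not exceed 5.75 CPM in any class of neurons. *Olig2* is also a gene of oligodendrocytes, and the 6 markers fixed for that lineage summed to 91.0, 104 and 127 CPM in precursors. The largest of them were *Mbp* (41.7, 43.2 and 72.5 CPM) and *Cnp* (40.6, 50.9 and 36.2 CPM). In Müller glia *Mbp* was at 16.5, 20.8 and 39.9 CPM and *Cnp* at 106, 90.3 and 29.8 CPM. In precursors *Mag* was at 0 UMIs in WT, *Sox10* at 0 in the *Tspan12* KO library and *Sox10*, *Olig1* and *Mag* at 0 in the *Ctnnb1* cKO library. Whether cells of that lineage lay among the precursors was not tested.

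*Atoh7* was the least counted of the 9 genes in the precursors of each library. It reached 43.0 CPM [37.2, 49.6] in WT precursors, 17.6 [12.5, 24.01] in those of the *Tspan12* KO library and 24.2 [6.58, 61.9] in those of the *Ctnnb1* cKO library, the last from 4 UMIs. Outside the precursors its highest level was 15.2 CPM, in WT bipolar cells. Its 9.95 CPM in WT Müller glia rested on 1 barcode, which held 57 of the 64 UMIs and was itself large at 103489 UMIs in all. Without that barcode the level was 1.11 CPM, so *Atoh7* in WT Müller glia was mostly a value of 1 droplet. In the knockout libraries its few UMIs were spread over cells. The main Müller cluster of the *Tspan12* KO library (1169 cells) held 17 in 15 cells, and cluster 16 of the *Ctnnb1* cKO library 4 in 4 cells.

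The ligand genes differed in how far they were limited to precursors. *Dll1* stood at 98.6 [89.6, 108], 90.1 [78.0, 103] and 127 CPM [78.5, 194] in precursors, and at 53.6, 48.0 and 64.9 CPM in Müller glia. In cycling progenitors it was at 39.5 and 32.1 CPM in the WT and *Tspan12* KO libraries and was counted once in the *Ctnnb1* cKO library. *Dll3* stood at 189 [177, 202], 174 [157, 192] and 60.4 CPM [29.0, 111] in precursors, and at 22.4, 26.6 and 42.0 CPM in Müller glia. *Dll3* was thus several times its Müller level in the precursors of the first 2 libraries, whereas the intervals of the *Ctnnb1* cKO library overlap with cluster 16 counted and do not overlap without it (7.05 CPM [0.85, 25.5] in Müller glia). In bipolar cells *Dll3* was at 45.2, 37.5 and 32.5 CPM and in the other neurons of the 3 libraries between 15.4 and 29.7 CPM where it was counted.

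Between Müller glia and precursors the Hes genes ran in opposite directions. *Hes5* stood at 1564 CPM in WT Müller glia, at 634 [606, 662] in cycling progenitors and at 173 [161, 185] in precursors. The *Tspan12* KO library held 812 [787, 837], 349.8 [319, 383] and 125 CPM [110.5, 140.4] in the same order, and the *Ctnnb1* cKO library 840.1 [799, 883], 520.2 [437, 615] and 181 CPM [122, 259]. The descent from glia to progenitors to precursors therefore held in each library without overlap of intervals. *Hes6* was at its highest in precursors, with 688 [664, 713], 577 [546, 609.9] and 531 CPM [426, 655]. It remained high in cycling progenitors (526, 418 and 368 CPM) and in Müller glia (406, 298 and 455 CPM), and its background in endothelial cells was 36.9 to 39.0 CPM. In the *Ctnnb1* cKO library Müller glia thus lay above cycling progenitors for *Hes6* as for *Hes5*. The log2 ratio of *Hes6* in precursors over Müller glia was 0.22 there, and ran from −0.16 to 0.86 under other processing choices. Without cluster 16 the *Ctnnb1* cKO library kept 94 Müller glia, in which *Neurog2* was at 3.52 CPM [0.089, 19.6] from 1 UMI, *Dll1* at 42.3 [21.8, 73.9], *Hes5* at 997 [884, 1120.4] and *Hes6* at 317 [255, 389.8], and *Atoh7*, *Olig2* and *Vxn* at 0 UMIs. Reads of *Hes5* cannot be told apart from those of its antisense neighbour *Gm20421*, nor those of *Vxn* from *2610203C22Rik*, if the counting ignored strand, which is not given in the sources used here.

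*Mybl1* and *Vxn* are neighbours on chromosome 1, with 0 annotated genes between them, and both had their highest level in precursors and their next highest in bipolar cells, the interneurons that relay photoreceptor signals. *Mybl1* stood at 894 [866, 922], 677 [643, 712] and 640.2 CPM [524, 774] in precursors of the WT, *Tspan12* KO and *Ctnnb1* cKO libraries and at 420.2 [399, 442], 199 [185, 215] and 83.1 CPM [52.7, 125] in bipolar cells. *Vxn* stood at 212 [199, 226], 149 [133, 166] and 151 CPM [97.7, 223] in precursors and at 154 [141, 167], 99.9 [89.5, 111] and 90.3 CPM [58.4, 133] in bipolar cells. Most of the bipolar signal came from 1 of the bipolar clusters: in cluster 10, of 401 WT cells, *Mybl1* was at 486 CPM and *Vxn* at 177 CPM, against 48.7 and 19.5 CPM in cluster 20, of 73 WT cells. The *Tspan12* KO library gave the same order, with 249.5 and 120.2 CPM in cluster 10 against 27.5 and 30.2 CPM in cluster 20. *Mybl1* was also at 205, 123 and 72.1 CPM in cycling progenitors, whereas *Vxn* there was at 15.3 and 25.5 CPM and was not counted in the *Ctnnb1* cKO library, where the exact interval of 0 UMIs reaches 14.0 CPM.

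Precursors were then set against Müller glia within each library, which asks whether the genes go with the neurogenic or the glial side. The 9 genes were chosen as genes of precursors with earlier results of these data known. Counts past the fold, here and against cycling progenitors, therefore describe the genes and do not test that choice. A gene was called past the fold at a log2 ratio of 1 or more in size with at least 50 UMIs over both classes. In WT, 6 of 9 genes were past the fold upward (*Olig2*, 4.604 [3.88, 5.43]; *Vxn*, 4.42 [4.05, 4.80]; *Mybl1*, 4.05 [3.90, 4.22]; *Dll3*, 3.08 [2.82, 3.34]; *Neurog2*, 2.70 [2.502, 2.904]; *Atoh7*, 2.11 [1.70, 2.54]), beside 5.88% of all genes counted well enough. *Hes5* was past it downward at −3.18 [−3.29, −3.07], beside 10.9% of all genes. *Dll1* at 0.88 [0.67, 1.09] and *Hes6* at 0.76 [0.68, 0.84] lay above 0 and within the fold. Without the large barcode the *Atoh7* ratio was 5.21. The *Tspan12* KO library placed the same 6 genes upward and *Hes5* downward (3.54% and 8.91% of all genes), with *Neurog2* at 1.79 [1.56, 2.02] and *Hes5* at −2.70 [−2.88, −2.53]. In the *Ctnnb1* cKO library 7 genes were counted well enough, of which *Mybl1* (3.43 [3.03, 3.82]), *Vxn* (2.59 [1.83, 3.32]) and *Neurog2* (2.13 [1.40, 2.81]) were past the fold upward and *Hes5* (−2.21 [−2.79, −1.69]) downward, beside 5.71% and 12% of all genes. Without cluster 16 only 3 genes were counted well enough there, *Mybl1* upward at 3.18 [2.48, 3.95], *Hes5* downward at −2.46 [−3.05, −1.91] and *Hes6* at 0.75 [0.30, 1.19]. Where no doublets were removed, *Neurog2* lay at −0.054 in WT and −0.22 in the *Tspan12* KO library, so its place on the precursor side depends on that step.

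Precursors were also set against cycling progenitors, the class they are held to come from. In WT, 7 of 9 genes were past the fold upward, led by *Vxn* (3.79 [3.37, 4.25]) and *Dll3* (2.91 [2.57, 3.27]), beside 8.26% of all genes. *Neurog2* (1.33 [1.14, 1.51]), *Dll1* (1.32 [1.03, 1.62]) and *Olig2* (1.45 [1.06, 1.85]) had the smallest of these ratios, and their levels in WT cycling progenitors were 101, 39.5 and 22.2 CPM. *Hes5* was past the fold downward at −1.87 [−1.997, −1.75], beside 12.7% of all genes, and *Hes6* stood at 0.39 [0.30, 0.48]. Where no doublets were removed, 4 of the 9 genes were upward, *Neurog2* was at 0.054, *Olig2* at 0.82 and *Dll1* at −0.028. In the *Tspan12* KO library 6 of 8 genes were upward and *Hes5* downward (7.17% and 10.7% of all genes). In the *Ctnnb1* cKO library 3 genes could be read, of which *Mybl1* was upward at 3.15 [2.44, 3.94] and *Hes5* downward at −1.52 [−2.14, −0.94], beside 12% and 14.9% of all genes.

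**Figure D2:**
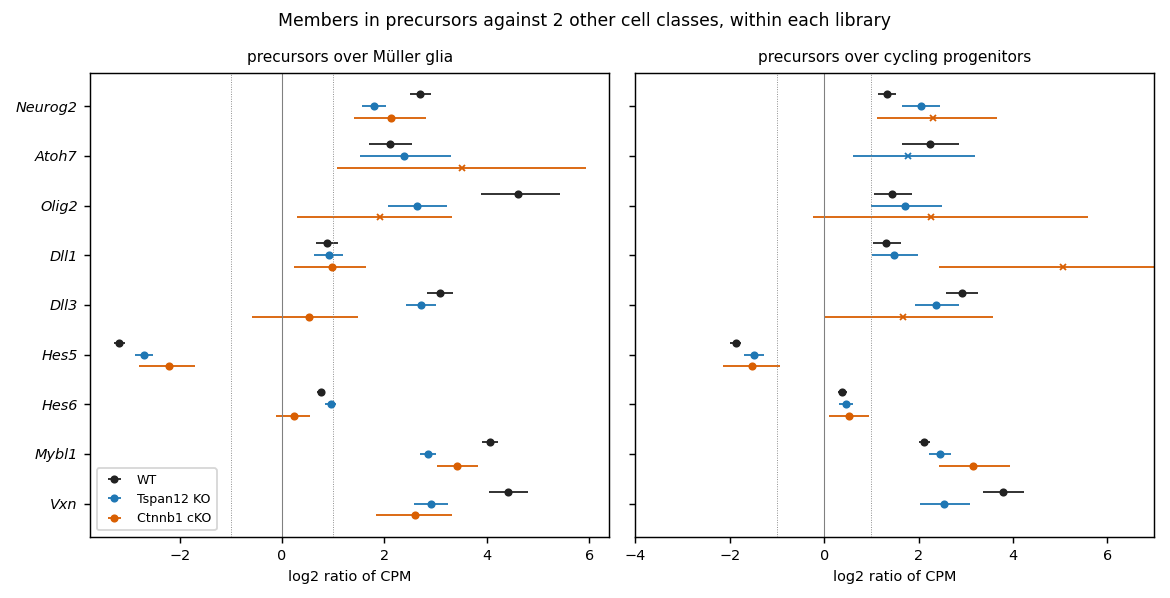
Log2 ratio of CPM (horizontal axis) of precursors over Müller glia (left) and over cycling progenitors (right) within each library, points with exact 95% intervals, crosses for genes with fewer than 50 UMIs over both classes and dotted lines at the fold. *Hes5* lay to the left of 0 in every library in both panels and the other plotted genes to the right, with *Dll3* of the *Ctnnb1* cKO library (0.52 [−0.59, 1.48] over Müller glia) among those whose interval includes 0.

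Other genes of the same pathways gave the setting for these ratios. Of 13 well-counted proneural and related bHLH genes, 5 were past the fold upward in WT precursors over Müller glia, among them *Neurod4* (4.04), *Neurod1* (3.92) and *Bhlhe22* (2.51), which act in the first steps of neuronal types, and *Ptf1a* (5.72 [3.81, 8.79], from 2 UMIs in Müller glia), which acts in amacrine and horizontal cells. The 4 that were downward were the Id genes, whose products block bHLH factors (*Id1*, −2.18; *Id2*, −3.06; *Id3*, −3.84; *Id4*, −3.09). Of 26 Notch pathway genes, 3 were upward (*Dll4*, 2.98, a further ligand; *Numbl*, 1.55; *Mfng*, 1.38, which modifies Notch) and 9 downward, including the receptor gene *Notch2* (−3.27) and the targets *Hes1* (−3.97) and *Nrarp* (−1.72). Of 16 genes of the neurogenic transition 11 were upward and none downward (*Otx2*, 3.67; *Gadd45g*, 3.05; *Prdm1*, 2.85; *Crx*, 2.79; *Insm1*, 2.63), and of 16 progenitor factors none was upward and 9 were downward (*Zfp36l1*, −2.65; *Ccnd1*, −2.12; *Sox2*, −1.95). Medians were 0.03 for the bHLH list, −0.09 for the Notch list, 1.58 for the transition list and −1.22 for the progenitor list, beside 0.01 over all genes. Of 11 Myb family and cycling genes none was upward and 5 were downward, *Myb* at −1.37, so *Mybl1* and *Myb* lay on opposite sides of 0. The *Tspan12* KO library gave 4 upward and 4 downward of 12, 3 and 8 of 25, 10 and 1 of 16, 0 and 9 of 16, and 0 and 4 of 11 for the bHLH, Notch, transition, progenitor and Myb lists.

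The share of cells in which each gene was found was measured after thinning every cell to 2000 UMIs, which left 748 WT, 463 *Tspan12* KO and 43 *Ctnnb1* cKO precursors. *Hes6* was found in 65.8% of WT precursors and *Mybl1* in 65.0% [61.4, 68.4], *Vxn* in 29.5%, *Dll3* in 26.6%, *Neurog2* in 19.4% [16.6, 22.4], *Dll1* in 15.5%, *Hes5* in 12.7%, *Olig2* in 10.3% and *Atoh7* in 7.35% [5.59, 9.46]. In the *Tspan12* KO library the shares of 8 genes had intervals that overlapped those of WT, for example *Neurog2* at 18.6% [15.1, 22.4] and *Mybl1* at 62.4% [57.8, 66.8]. *Atoh7* was found in 3.67% [2.15, 5.81] of *Tspan12* KO precursors, with an interval that reached into that of WT only at its edge. In WT endothelial cells, thinned alike, the share was 0.193% for *Neurog2*, 0 of 519 cells for *Atoh7* and *Olig2* (up to 0.578%), 3.85% for *Hes5* and 5.78% for *Hes6*, so the precursor shares lay above this background for each gene named. Unthinned, *Neurog2* was counted in 27.4% of WT and 19.8% of *Tspan12* KO precursors, *Atoh7* in 11.6% and 4.33%, and *Mybl1* in 81.3% and 63.2%. Thinned to 1000 and 4000 UMIs, *Neurog2* was found in 13.9% and 27.9% of WT precursors and in 9.79% and 30.2% of *Tspan12* KO precursors. Of 27 precursor shares (9 genes in 3 libraries), 18 and 21 left their interval at these depths and 14 did so unthinned. WT endothelial cells had a median of 15792 UMIs against 5294 in WT precursors, and their unthinned shares were 5.40% for *Neurog2* and 35.2% for *Hes5*.

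Within the precursors the genes did not fall evenly over the cells. Of the 145 WT precursors with a *Neurog2* UMI after thinning, 35.2% [27.4, 43.5] also held *Dll1*, against 10.8% [8.42, 13.5] of those without, and in the *Tspan12* KO library the shares were 29.1% of 86 cells and 8.75%. *Hes6* went the same way, at 88.3% against 60.4% in WT and 80.2% against 60.5% in the *Tspan12* KO library. *Olig2* was found in 26.2% against 6.47% in WT and in 14.0% against 6.90% in the *Tspan12* KO library. *Dll1* was thus more frequent among *Neurog2* cells in both libraries, although most *Neurog2* cells held no *Dll1* UMI at this depth. *Atoh7* went the other way: 3 of 145 *Neurog2* cells held it (2.07% [0.429, 5.93]) against 8.62% [6.51, 11.2] of the rest in WT, and 0 of 86 against 4.51% in the *Tspan12* KO library. Cells with *Atoh7* also held *Dll1* less often in these counts, 3 of 55 (5.45%) against 16.3% in WT and 0 of 17 cells in the *Tspan12* KO library. *Vxn* was found in 21.4% of *Neurog2* cells against 31.5% of the rest in WT and in 10.5% against 27.1% in the *Tspan12* KO library, whereas *Mybl1* was more frequent among *Vxn* cells, at 72.4% against 61.9% and 77.5% against 57.7%. These cells share a library and were not treated as replicates.

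**Figure D3:**
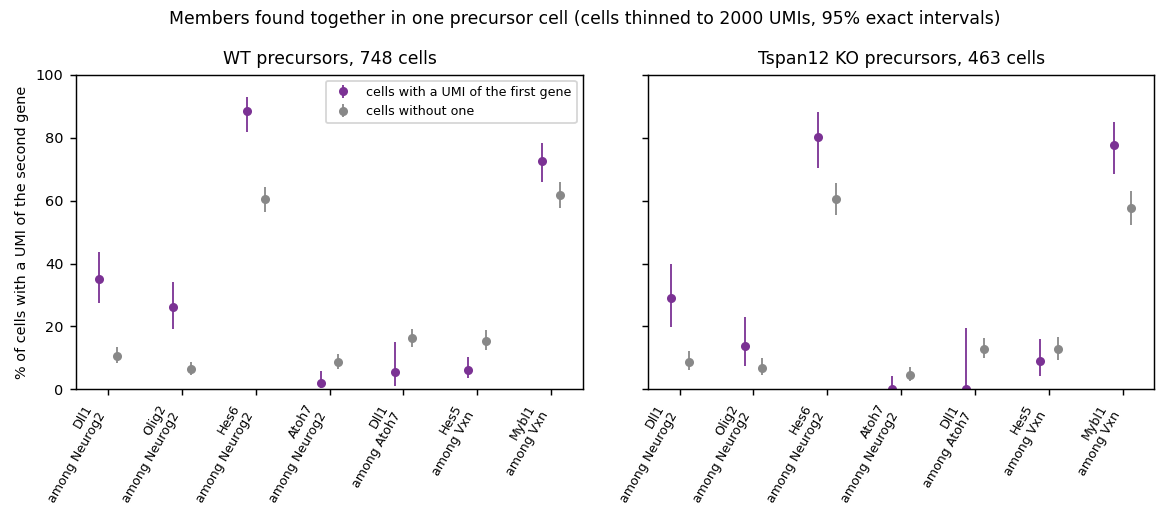
Share of precursors with a UMI of a second gene (vertical axis, percent, exact 95% intervals) among cells with (purple) and without (gray) a UMI of a first gene, in thinned cells of the WT and *Tspan12* KO libraries. *Dll1*, *Olig2* and *Hes6* lay higher among *Neurog2* cells, with the *Olig2* intervals of the *Tspan12* KO library overlapping, while *Atoh7* lay lower.

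The precursors were split by each gene in turn. The progenitor genes *Ccnd1* and *Zfp36l1* lay on the opposite side of the *Neurog2* split from *Neurod4*, *Neurod1* and *Crx*. WT precursors with *Neurog2* had 17 of 72 list and marker genes past the fold upward and 7 downward, beside 2.86% and 5.76% of all genes counted well enough, and the *Tspan12* KO library had 13 and 5 of 64 (2.75% and 5.22%). The upward genes included *Ccnd1*, a cyclin of progenitors (1.96 [1.71, 2.21] in WT and 1.45 [1.16, 1.74] in the *Tspan12* KO library), the progenitor RNA-binding gene *Zfp36l1* (1.61 and 1.04), *Id1* (1.40 and 1.82), *Sox11* (1.24 and 1.46) and the Müller gene *Rlbp1* (1.57 and 1.09). The downward genes included *Neurod4* (−2.22 [−2.55, −1.91] and −1.64 [−2.05, −1.24]), *Neurod1* (−1.26 and −1.12) and the photoreceptor factor *Crx* (−1.25 and −1.23). *Hes5* was also higher in *Neurog2* cells (1.16 and 1.76).

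Splits by *Dll1* and by *Hes5* resembled the *Neurog2* split in *Ccnd1* and *Neurod4*, and in splits by *Vxn*, *Mybl1* and *Atoh7* *Ccnd1* lay on the other side of 0. With *Dll1*, *Ccnd1* was at 1.61 and 1.08 and *Neurod4* at −1.17 and −1.68 in the WT and *Tspan12* KO libraries. With *Hes5*, *Ccnd1* was at 1.54 and 0.80 and *Neurod4* at −1.19 and −1.18. In *Vxn* cells *Ccnd1* was at −1.42 and −1.04, and *Hes5* was at −2.73 [−3.59, −1.98] in WT and at 0.025 [−0.58, 0.59] in the *Tspan12* KO library. In *Mybl1* cells *Ccnd1* was at −1.28 and −0.87. *Mybl1* splits held 1 upward and 1 downward of 72 list and marker genes in WT (0.697% and 0.357% of all genes). In the *Tspan12* KO library they held 2 and 2 of 64 (1.02% and 0.382%). In *Atoh7* cells *Ccnd1* was at −2.07 [−3.14, −1.18] and −2.41 [−4.70, −0.86], the latter from 3 UMIs in 17 cells. *Vxn* splits held 0 upward and 9 downward of 72 genes in WT (0.214% and 1.7% of all genes) and 0 and 6 of 64 in the *Tspan12* KO library (0.687% and 1.86%). *Atoh7* splits held 0 upward and 13 downward of 72 in WT (2.2% and 8.72%) and of 65 in the *Tspan12* KO library (5.32% and 14.9%). The *Dll1* split of the *Tspan12* KO library gave *Hes5* 2.89, a value to which 1 cell with 39 *Hes5* UMIs contributed.

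**Figure D4:**
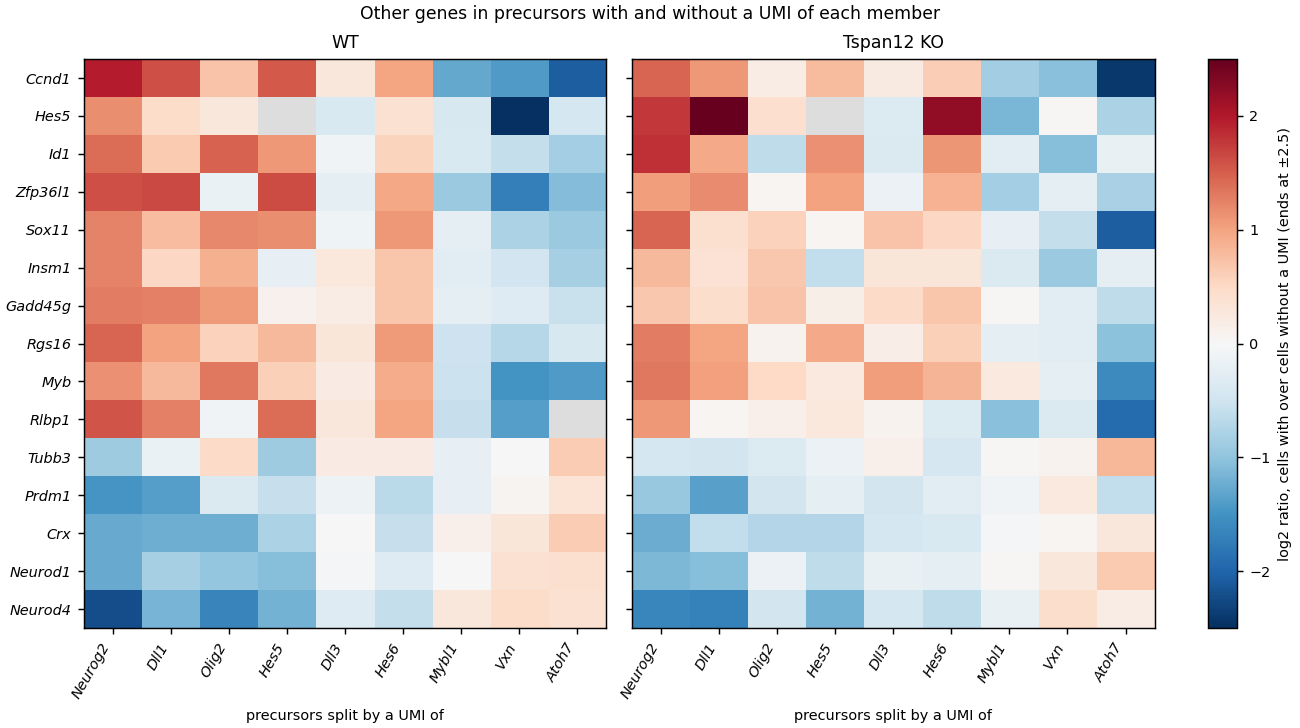
Log2 ratio (color, red higher and blue lower in cells with a UMI, scale ending at 2.5 in size, gray where fewer than 50 UMIs were counted or the gene is the one split on) of 15 genes, chosen after their values were seen, in precursors split by each of the 9 genes, thinned cells of the WT and *Tspan12* KO libraries. The *Ccnd1* row changes from red under *Neurog2* (1.96 in WT) to blue under *Atoh7* (−2.07 in WT), and the *Neurod4* row does the reverse in WT.

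The knockout libraries were then compared with WT inside each class. In precursors all 9 genes were lower in the *Tspan12* KO library than in WT, with a median log2 ratio of −0.41 beside 0.01 over all genes. Only *Atoh7* was past the fold, at −1.29 [−1.83, −0.79], where 0.858% of all genes were past it downward and 1.46% upward. *Vxn* (−0.52 [−0.70, −0.33]), *Neurog2* (−0.49 [−0.66, −0.33]), *Hes5* (−0.47 [−0.67, −0.27]), *Olig2* (−0.41 [−0.76, −0.08]), *Mybl1* (−0.40 [−0.49, −0.31]) and *Hes6* (−0.25 [−0.35, −0.16]) had intervals below 0. The ligand genes *Dll1* (−0.13 [−0.38, 0.11]) and *Dll3* (−0.12 [−0.30, 0.05]) did not. The sum of 8 rod markers in the same cells was 271 CPM in WT and 771 CPM in the *Tspan12* KO library, and its part in these ratios was not tested. The other genes of the pathway lists had medians near 0 in this comparison (−0.09 for bHLH, 0.07 for Notch, −0.03 for the transition and −0.02 for progenitor genes), with *Ptf1a* downward and *Hey2* upward as the genes past the fold.

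In cycling progenitors *Neurog2* was the gene past the fold in the *Tspan12* KO library, at −1.21 [−1.63, −0.81] on 310 WT and 60 *Tspan12* KO UMIs (1.36% of all genes downward, 0.903% upward). *Hes5* was at −0.86 [−1.004, −0.71] and *Mybl1* at −0.74 [−0.99, −0.49], while *Dll3* at 0.42 [−0.14, 0.96] and *Vxn* at 0.73 [0.06, 1.40] lay above 0. The summed level of the cycling markers was 4519 CPM in WT and 3425 CPM in the *Tspan12* KO library, and its part was not tested. In Müller glia *Hes5* was lower at −0.95 [−0.999, −0.89], just within the fold. The genes of the precursor side lay on both sides of 0 there. *Olig2* at 1.56 [0.68, 2.51], *Vxn* at 0.996 [0.53, 1.47], *Mybl1* at 0.80 [0.60, 1.01], *Neurog2* at 0.41 [0.16, 0.67] and *Dll3* at 0.25 were higher. *Hes6* at −0.44, *Dll1* at −0.16 and *Atoh7* were lower. With no doublets removed the ratios of *Olig2*, *Vxn*, *Mybl1* and *Neurog2* were 0.25, −0.25, −0.17 and −0.34. With each library clustered on its own they were 0.41, −0.42, −0.15 and −0.22, and 8 of 9 genes lay below 0 in both settings. *Olig2* was past the fold upward and *Atoh7* downward (−1.56 [−2.43, −0.77]), beside 2.75% and 1.22% of all genes, and the *Atoh7* ratio turned to 1.43 without the large WT barcode. Of 16 transition genes 6 were past the fold upward in the same Müller glia, among them *Otx2* (1.61) and *Crx* (1.58), and the rod markers summed to 206 CPM in WT and 726 CPM in the *Tspan12* KO library. Whether other cells within the Müller clusters account for these values was not tested.

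Among the 54 *Ctnnb1* cKO precursors *Dll3* was the gene past the fold, at −1.65 [−2.71, −0.76] from 10 UMIs, where 14.2% of all genes were past the fold downward and 6.49% upward, and *Neurog2* (−0.75 [−1.38, −0.18]), *Mybl1* (−0.48 [−0.77, −0.20]) and *Hes6* (−0.37 [−0.69, −0.07]) had intervals below 0. *Dll1* at 0.36 [−0.34, 0.99] and *Hes5* at 0.07 [−0.51, 0.59] did not differ from WT beyond counting error. With the 306 precursors by marker score, the 351 of single-library clustering and with no doublets removed, *Dll3* was at −0.74, −0.87 and −0.68, within the fold, and 4, 4 and 2 genes were past it downward. The microglia markers summed to 97.5 CPM in WT and 423 CPM in the *Ctnnb1* cKO precursors, and their part was not tested. In cycling progenitors 4 of 7 genes were past the fold downward and 0 upward, beside 12.5% and 4.35% of all genes: *Neurog2* (−1.74 [−2.96, −0.74]), *Mybl1* (−1.51 [−2.25, −0.85]), *Olig2* (−1.55 [−4.62, 0.36], 2 UMIs) and *Dll1* (−3.38 [−8.69, −0.87], 1 UMI). In Müller glia *Hes5* was at −0.90 [−0.97, −0.82] with cluster 16 and −0.65 [−0.82, −0.48] without it, and at −0.057 with no doublets removed. *Vxn*, upward at 1.33 [0.75, 1.90], and *Atoh7*, downward at −2.23 [−4.14, −0.80], were past the fold beside 9.33% and 12.2% of all genes, and without cluster 16 neither was counted in the Müller glia of this library. The *Atoh7* ratio turned to 0.54 without the large WT barcode, and the *Vxn* ratio to −0.38 with no doublets removed. *Neurog2* stood at −0.17 [−0.59, 0.22] with cluster 16 and at −3.47 [−8.78, −0.98], from 1 UMI, without it.

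**Figure D5:**
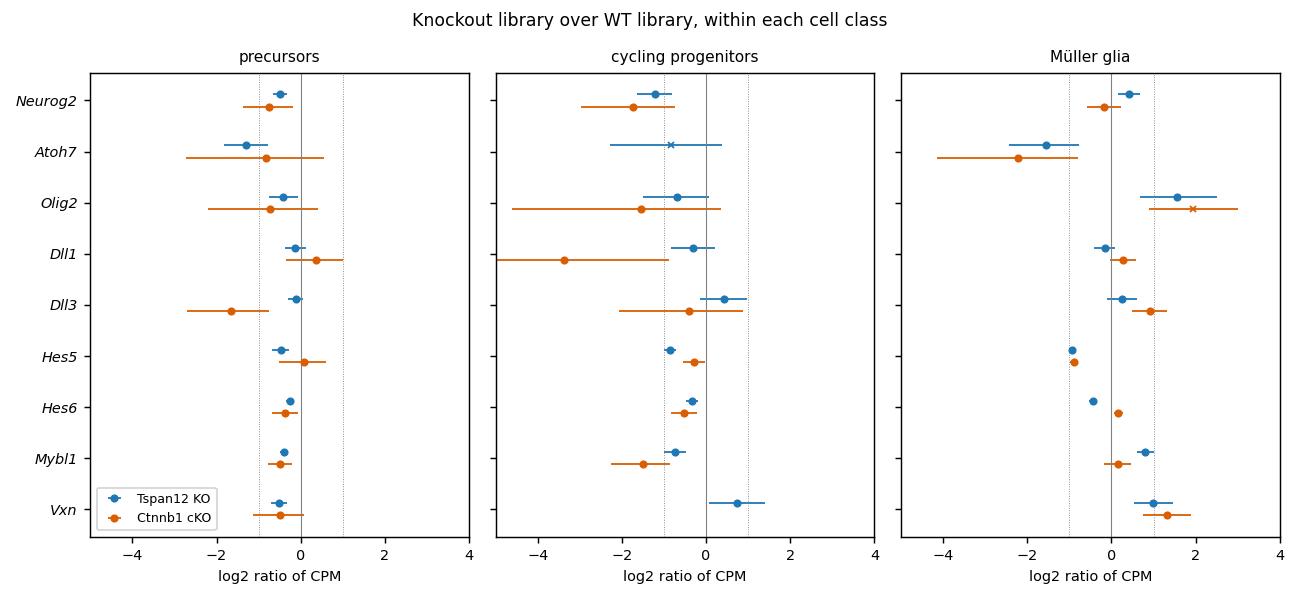
Log2 ratio of CPM (horizontal axis) of each knockout library over WT in precursors, cycling progenitors and Müller glia, points with exact 95% intervals, crosses for genes with fewer than 50 UMIs over both libraries and dotted lines at the fold. In precursors all 9 *Tspan12* KO points lay left of 0, from −1.29 (*Atoh7*) to −0.12 (*Dll3*), and in Müller glia *Hes5* lay near −0.9 in both knockout libraries, which share the WT library.

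The share of a gene's UMIs that lay in the precursors differed more between libraries than the level did. In WT the precursors held 60.5% of all *Olig2* UMIs, 47.3% of *Neurog2*, 44.8% of *Mybl1*, 40.4% of *Dll3*, 36.8% of *Vxn*, 33.8% of *Dll1*, 17.9% of *Hes6* and 4.82% of *Hes5*. In the *Tspan12* KO library these shares ran from 17.1% (*Mybl1*) and 17.0% (*Olig2*) down to 1.73% (*Hes5*). The precursors held 5.90%, 2.10% and 0.507% of the UMIs of all genes in the kept cells of the WT, *Tspan12* KO and *Ctnnb1* cKO libraries. In the *Tspan12* KO library 1 unnamed cluster of 1384 cells held 61.3% of the *Neurog2* UMIs (1874, at 36.7 CPM) and 48.4% of the UMIs of all genes. In the *Ctnnb1* cKO library the precursors held between 0.938% (*Hes5*) and 13.3% (*Mybl1*).

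The genes whose levels ran most like those of each gene were sought over 26 points (cell class by library, at least 20 cells each) among 18091 genes, by Pearson's r of log2(CPM + 5). The points share libraries and differ in depth, so r is a description. The closest were *Miat* for *Neurog2* (r = 0.90), *Tuft1* for *Atoh7* (0.89), *Lynx1* for *Olig2* (0.90), *Zc3h12c* for *Dll1* (0.95), *Mycl* for *Dll3* (0.95), *Espn* for *Hes5* (0.98), *Igf2bp1* for *Hes6* (0.97), *Btbd17* for *Mybl1* (0.95) and *Actc1* for *Vxn* (0.92). With a pseudocount of 1 the closest gene became *Dll3* for *Mybl1* (0.95) and *St6galnac5* for *Vxn* (0.93), and of the closest 3 between 1 and 3 were shared. Among the 9 genes themselves, *Dll3* and *Mybl1* were most alike (0.94) and *Hes5* and *Vxn* least (0.23).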

How the data were processed

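Retinal cells of postnatal day 6 mice were measured in 3 droplet libraries, 1 per genotype, and groups follow the labels. The deposited values are raw UMI counts per gene and barcode, made by the authors with Cell Ranger (the matrix header names version 8.0.1, a version that differs from the methods). The submitters' processing notes name GRCm39 whereas the methods name another build, so gene coordinates are not given apart from RefSeq windows. Further data sets with which the study combined its libraries were not used here.

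Barcodes were kept at 250 genes or more, 500 UMIs or more and a mitochondrial share of no more than 15%. The highest Scrublet scores (scanpy 1.11.5) were removed at 0.8% per 1000 cells, a step that removed 760, 1656 and 665 cells of the WT, *Tspan12* KO and *Ctnnb1* cKO libraries. The automatic threshold called 0, 0 and 342 and was not used. Counts were scaled to 10000 and log-transformed, and 2000 variable genes without the 9 genes, 30 components and 20 neighbours were clustered with leidenalg 0.10.2 at resolution 1 without integration. Clusters took a class name from at least 3 markers with a log2 fold of 1 in at least 10% of cells, so each name means cells like that class. UMIs were summed per class and library, and ratios, intervals and thinning were computed with numpy 2.4.6 and scipy 1.17.1 in Python 3.11.15. The fold rule (log2 of 1 in size, 50 UMIs over both sums) was tested on simulated counts. TMM factors came from edgeR 4.0.16 in R 4.3.3. Alternatives were another resolution, classes by marker score, clustering with the genes, no doublet removal, single-library clustering, TMM, means over cells, other thresholds, depths and pseudocounts, and 3 chosen after the data were seen. No test between groups was made, since each group has 1 library.

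The 9 genes, the pathway lists and the markers were chosen with earlier results of these data known. The genes named are the 9 genes, list and marker genes, leading genes of clusters, and the genes most like each of the 9; single values of some list genes are not reported here.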

Additional observations from a re-analysis of the deposited data

Results flagged for a closer look

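*Hes6* in Müller glia lay on opposite sides of WT in the knockout libraries. Its log2 ratio was −0.44 [−0.54, −0.35] in the library labelled *Tspan12* KO and 0.17 [0.05, 0.28] in the library labelled *Ctnnb1* cKO, from 298 and 455 CPM against 406 CPM in WT. The difference between the knockout libraries was not tested, and both ratios share the WT library. Without cluster 16, which held 550 of the 644 *Ctnnb1* cKO Müller glia, the second ratio was −0.36 [−0.68, −0.05].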

How the results depend on the processing

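No paired analysis was possible because each group has 1 library and the groups share only the replicate number 1. Over all alternatives, 250 of 270 *Tspan12* KO over WT ratios, 216 of 250 *Ctnnb1* cKO over WT ratios, 353 of 360 class ratios in the WT and *Tspan12* KO libraries and 156 of 160 in the *Ctnnb1* cKO library kept their sign. All 9 genes stayed below 0 in *Tspan12* KO precursors in 8 of 10 alternatives and 8 of 9 in the other 2 (thinned and summed cells, marker score). TMM shifted log2 ratios by at most 0.0867 in size.

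Of the ratios past the fold, few turned sign outside *Atoh7*. With no doublets removed, *Neurog2* in precursors over Müller glia was at −0.054 (WT) and −0.22 (*Tspan12* KO), *Dll1* in WT precursors over cycling progenitors at −0.028 and *Vxn* in *Ctnnb1* cKO Müller glia at −0.38. By marker score *Neurog2* in *Ctnnb1* cKO cycling progenitors was at 0.11. *Atoh7* in Müller glia of the *Tspan12* KO library was at 1.10 (resolution 2), 0.27 (marker score), 0.89 (the 9 genes among the variable ones), 0.69 (mean over cells), 0.93 (thinned and summed) and 1.43 (without its top barcode), and in the *Ctnnb1* cKO library at 1.94 (resolution 2), 0.031 (marker score), 0.85 (the 9 genes among the variable ones), 1.06 (no doublets removed), 0.086 (without cluster 16), 1.71 (thinned and summed) and 0.54 (without its top barcode). A library without a UMI was set to 3 counts in the ratios of the *Ctnnb1* cKO library with no doublets removed, without cluster 16 and thinned, so these are no measured changes. Ranges over alternatives were −1.73 to −1.04 for *Atoh7* in *Tspan12* KO precursors, −1.28 to −0.71 for *Hes5* in *Tspan12* KO Müller glia, −1.30 to −0.29 for *Neurog2* in *Tspan12* KO cycling progenitors and −0.17 to 0.87 for *Mybl1* in *Tspan12* KO Müller glia. The causes were not tested, except that the top barcode of *Atoh7* turned its ratio.

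Of 280 counts of genes past the fold, 226 were within 1.5 times the value in the report and 54 were not. Precursors over Müller glia gave 2 downward in WT with no doublets removed, and in the *Ctnnb1* cKO library 1 upward with no doublets removed, without cluster 16 or with thinned and summed cells, and 5 with no minimum count. Precursors over cycling progenitors gave 4 upward in WT with no doublets removed, 0 downward by marker score in the *Tspan12* KO and *Ctnnb1* cKO libraries, and 3 and 7 upward in the *Ctnnb1* cKO library by marker score and with no minimum. In *Tspan12* KO precursors 2 genes were downward by marker score and 3 with each library clustered on its own. In *Tspan12* KO cycling progenitors 2, 0, 2, 0 and 4 were downward (marker score, no doublets removed, single libraries, mean over cells, lower threshold) and 1 upward at the lower threshold. In *Tspan12* KO Müller glia 0 were upward at resolution 2, with the 9 genes among the variable ones, with no doublets removed, in single libraries, by mean over cells and thinned, and 3 at the lower threshold, and 0 were downward at resolution 2, with the genes, with no doublets removed, without the top barcode and thinned, and 2 at the lower threshold. In *Ctnnb1* cKO precursors 1 was upward with no doublets removed, and 4, 2, 4, 4, 3 and 4 were downward by marker score, with no doublets removed, in single libraries, without the top barcode, thinned and at the lower threshold. In *Ctnnb1* cKO cycling progenitors 1 was downward by marker score and 2 thinned. In *Ctnnb1* cKO Müller glia 2 were upward at resolution 2, with the 9 genes, by mean over cells, at the lower threshold and with no minimum and 0 by marker score, with no doublets removed and without cluster 16, and 0, 2, 0, 2, 0 and 2 were downward with the 9 genes, with no doublets removed, by mean over cells, without cluster 16, without the top barcode and at the lower threshold.
The alternatives without cluster 16, with thinned and summed cells and without the barcode with most UMIs of the gene were chosen after the data were seen, the clustering with the 9 genes gave another partition when the linear algebra library was changed, and the lower threshold was a log2 ratio of about 0.6 in size.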

Other observations

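A small amacrine cluster (cluster 27, led by *Rbfox1*, *Scg2* and *Pnoc*) held *Neurog2* in the WT and *Tspan12* KO libraries. The cluster's levels there lay above those of the precursors, but the intervals overlapped. It had 8 WT cells with 36 *Neurog2* UMIs in 7 of them (336 CPM [236, 466]) and 23 *Tspan12* KO cells with 45 UMIs in 15 of them (233 CPM [170.3, 312]), while *Atoh7* and *Olig2* were at 0 UMIs in both libraries. The cluster was picked out after its values were seen. In the *Ctnnb1* cKO library it had 2 cells and no *Neurog2* UMI, in 4543 UMIs in all.

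A cluster led by *Ttr*, *Crhbp* and *Optc* (cluster 24, which took the name pigment epithelium from 4 of 6 markers) held *Dll1* with almost no *Neurog2*. It had 49 *Tspan12* KO cells with 58 *Dll1* UMIs (92.6 CPM [70.3, 119.8]) and 2 of *Neurog2*, and 94 *Ctnnb1* cKO cells with 40 *Dll1* UMIs (98.6 CPM [70.5, 134]) and 0 of *Neurog2*. This cluster was also picked out after its values were seen.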
